A study of Mus musculus and Canis lupus familiaris and Equus caballus with 9 samples.

Results

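The genes of the presynaptic release machinery were examined for binding by NRSF (also called REST) in mouse RAW264.7 cells. The group comprises 51 mouse genes, taken by family: 17 synaptotagmins and 34 genes of vesicle fusion, priming, docking and vesicle structure. All 51 were found by symbol among the 21900 protein-coding genes of the annotation used. A gene was counted as bound when the midpoint of an NRSF peak lay inside its annotated span or within 10 kb of either end. By this rule 23 of the 51 genes had a peak and 28 did not.

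RAW264.7 is an established macrophage line that derives from a BALB/c mouse. The mouse arm of the study had 2 samples from immunoprecipitation with a monoclonal NRSF antibody and 1 sample of input DNA without antibody, all from cells at passages 13 to 15, with no treatment or genotype change named in the labels, that were fixed with 1% formaldehyde. The authors deposited 1 peak list for both immunoprecipitated samples, with 2357 peaks of 400 bp and no score or replicate value. Replicate error and read depth are therefore unknown, every peak counts alike, and intervals below are exact (Clopper-Pearson) 95% intervals that cover counting error only. The list holds positions and no expression, so neither the macrophage identity of the cells nor the activity of any gene could be checked.

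Neurotransmitter is released when a docked vesicle fuses with the presynaptic membrane. SNARE proteins on both membranes zip together, priming factors make the vesicle ready, and synaptotagmins trigger fusion when they bind calcium. NRSF is a zinc-finger repressor best known for holding neuronal genes silent outside the nervous system, and several synaptic vesicle genes are textbook targets. It recognises a long element called RE1 (or NRSE) that has a left and a right arm, and forms of the element with the arms set further apart are also known.

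The sequences that carry this group's promoter results are shown first, because they show both forms of the element. RefSeq promoter sequences (GRCm38.p6, 250 bases before to 50 bases after a start site) were matched to 37 of the 51 genes by symbol, with 51 promoters. They were searched on both strands for a 16-base RE1 core, CAGCACCNNGGACAGC, with up to 2 mismatches at its 14 fixed positions. The reference is the C57BL/6J genome, so these are not sequences read from the BALB/c-derived cells. Each is written 5′ to 3′ in the direction of the core. Capitals mark the core, or in Unc13a its left and right arms.
Syn1, chrX:20921103-20921168, minus strand: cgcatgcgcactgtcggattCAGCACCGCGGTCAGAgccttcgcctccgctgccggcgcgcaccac
Rph3a, chr5:121009586-121009661, plus strand: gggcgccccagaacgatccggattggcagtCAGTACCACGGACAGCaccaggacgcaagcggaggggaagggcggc
Unc13a, chr8:71671725-71671754, plus strand: gcttCAGCACCgggggcgcGGACAGCgcct
Syt6, chr3:103575876-103575930, minus strand: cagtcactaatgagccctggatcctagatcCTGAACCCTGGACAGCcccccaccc

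The first 3 of these promoters were the only 3 of the group that contained a peak midpoint. In the Syn1 promoter the core had 2 mismatches, A12T and C16A, where the core's base comes first and positions are counted from 1 at its 5′ end. Its centre lay 6 bp from the peak midpoint. In the Rph3a promoter the core had a single mismatch, C4T, and lay 16 bp from the peak midpoint. In Unc13a no core with up to 2 mismatches was present. Both arms occurred there without a mismatch and in the same direction, but with 8 bases between them in place of 2, and the centre of this pair lay 5 bp from the peak midpoint. The pair covered bases 8 to 29 of the transcribed sequence. The Syt6 match, with the substitutions A2T and C4A, belonged to the most downstream of 3 start sites and lay 1888 bp from the nearest peak midpoint, which was upstream of the gene.

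Across all 32851 RefSeq promoters, 254 (0.773%) held the core with up to 2 mismatches. These promoters belong to 27025 genes and are not limited to the 21900 protein-coding genes. Among the 69 promoters that contained a peak midpoint, 22 (31.9%) held it. Exact arms in the same direction with 0 to 12 bases between them, a search chosen after the data were seen, occurred in 20 promoters, of which 14 contained a peak midpoint. Of the 20, 7 had the core's own spacing of 2 bases, and 6 of these contained a peak midpoint. With a spacing of 8 bases, as in Unc13a, there were 5 such promoters, of which 2 contained a peak midpoint. A peak overlapped the promoters of 3 further genes of the group, Syp, Cplx3 and Syt14. No core with up to 2 mismatches and no exact arm was found there, but the peak midpoints lay 175 bp downstream, 66 bp downstream and 380 bp upstream of the start site, outside the bases searched. Of the 26 promoters of genes without a peak, 0 held the core and 4 held an exact arm (15.4%, all promoters 13.1%). At the share of all promoters, a count of 0 cores in so few promoters is uninformative.

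**Figure D1:**
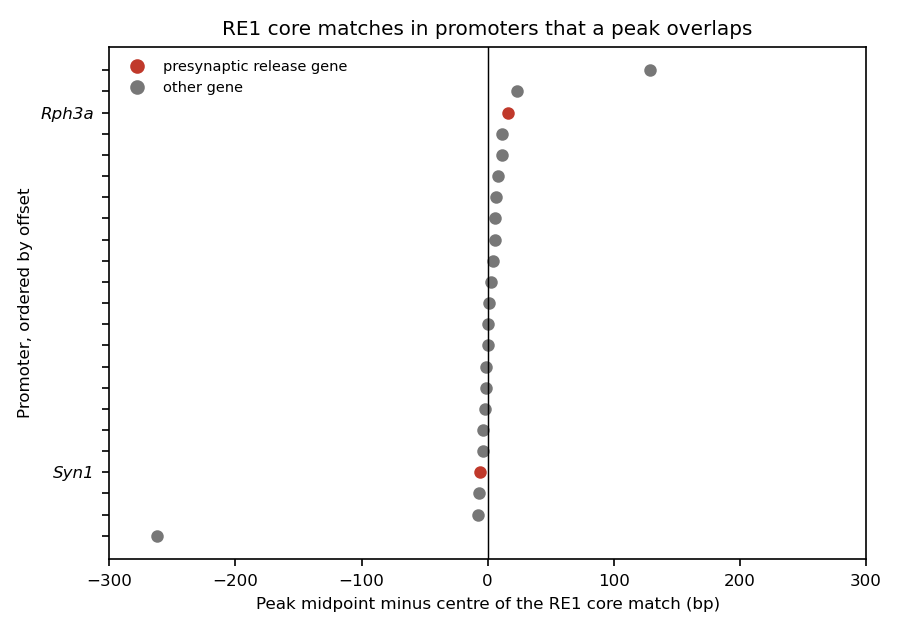
Distance from the centre of each RE1 core match (up to 2 mismatches) to the nearest peak midpoint, in bp, for the 23 matches in promoters that a peak overlaps; each point is 1 promoter and red points are genes of the presynaptic release machinery. The points for Syn1 and Rph3a sit within 16 bp of the peak midpoint, and 21 of the 23 matches sit within 25 bp.

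The share of release machinery genes with a peak was 45.1% (23 of 51, interval 31.1 to 59.7%). Over all protein-coding genes the same rule called 7.49% (1640 of 21900). The group was proposed with earlier results of these data known, so no test was made of this difference and the 2 shares stand as a description. The share also lay above that of all genes by each narrower rule. Of the 51 genes, 13 had a peak no further than 10 kb from an end (25.5%), against 5.63% of all genes, and 10 had one no further than 1 kb (19.6%), against 1.58%. Of the 37 genes with known start sites, 8 had a peak within 1 kb of one (21.6%), against 1.35% of all genes with known start sites. Inside the span itself, 19 genes had a peak (37.3%), against 4.43% of all genes.

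Gene length bears on the counts that include the gene span, because a long gene offers more room for a peak. The median length was 64.4 kb in the group and 17.1 kb over all protein-coding genes. Of the 8 members under 10 kb, 2 had a peak (interval 3.19 to 65.1%, all genes of that length 4.64%). The shares were 4 of 14 between 10 and 50 kb (28.6%, all genes 6.33%) and 11 of 14 between 50 and 150 kb (78.6%, all genes 11.0%). Above 150 kb the share was 6 of 15 (40.0%, interval 16.3 to 67.7%, all genes 21.7%). The background thus rose with length, and the interval of the group included it in the shortest and in the longest class. Several of the longest members, among them Rims1, Unc13c, Cadps2 and Syt1, each over 500 kb, had no peak.

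**Figure D2:**
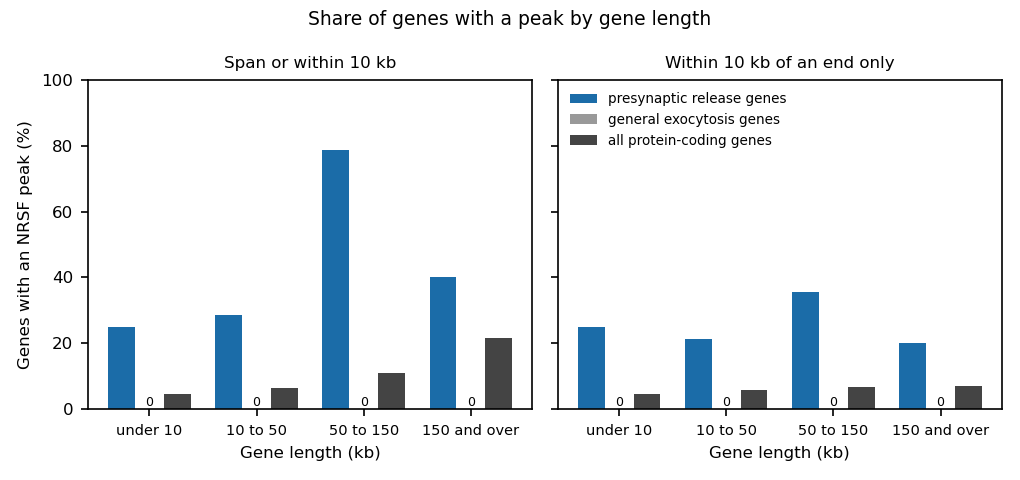
Percentage of genes with an NRSF peak by gene length in kb, for the presynaptic release genes, the general exocytosis genes and all protein-coding genes; the left panel counts the gene span and 10 kb around it, the right panel only the 10 kb around the annotated ends. The release genes lie above all protein-coding genes in each of the 4 length classes in both panels, and a 0 marks classes in which no gene had a peak.

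The calcium sensor families (synaptotagmins and Doc2 proteins, not all of which bind calcium well) held 7 genes with a peak among 19. This was 36.8% (interval 16.3 to 61.6%, all genes 7.49%), and all 7 were synaptotagmins. Syt1, the main sensor of fast release in the forebrain, had no peak within 1665.7 kb of its ends. Syt2, the fast sensor of hindbrain and neuromuscular synapses and the closest relative of Syt1, had a peak inside the gene at chr1:134664815-134665215, 18.4 kb downstream of its nearest start site. Syt9 had one 22.2 kb downstream of its start site, at chr7:107392785-107393185.

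Syt7, a slow, high-affinity sensor of asynchronous release, had a peak inside the gene, 14.5 kb from its closer end. The peak of Syt4, a synaptotagmin with weak calcium binding that sits on dense-core and other vesicles, was one of the closest to a gene end, 225 bp inside it. Syt6 had a peak 1.24 kb upstream of its first start site, and Syt14 had one 380 bp upstream. In Syt16 the peak lay deep in the gene, 195.0 kb downstream of the start site and at 72.2% of the gene's length. The Syt2, Syt7, Syt9 and Syt16 peaks were all more than 10 kb from a gene end, so 3 of the 17 synaptotagmins remained when only ends within 10 kb counted.

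Members with and without a peak occurred among both the calcium-binding and the other synaptotagmins. In a grouping made after the values were seen, 4 of the 8 synaptotagmins known to bind calcium well (Syt1, Syt2, Syt3, Syt5, Syt6, Syt7, Syt9 and Syt10) had a peak (interval 15.7 to 84.3%), as did 3 of the other 9 (interval 7.49 to 70.1%), and the intervals overlapped. Syt3, Syt5 and Syt10 had their closest peaks 32.3, 72.6 and 216.8 kb from an end. Syt8, Syt11, Syt12, Syt13, Syt15 and Syt17 had none in reach either. Neither of the Doc2 genes, soluble calcium sensors of spontaneous release, had a peak. Doc2a and Syt17 were the nearest to the 10 kb limit from outside, with closest peaks 21.4 and 21.5 kb away, and Rab3b was the nearest from inside, at 8.94 kb.

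**Figure D3:**
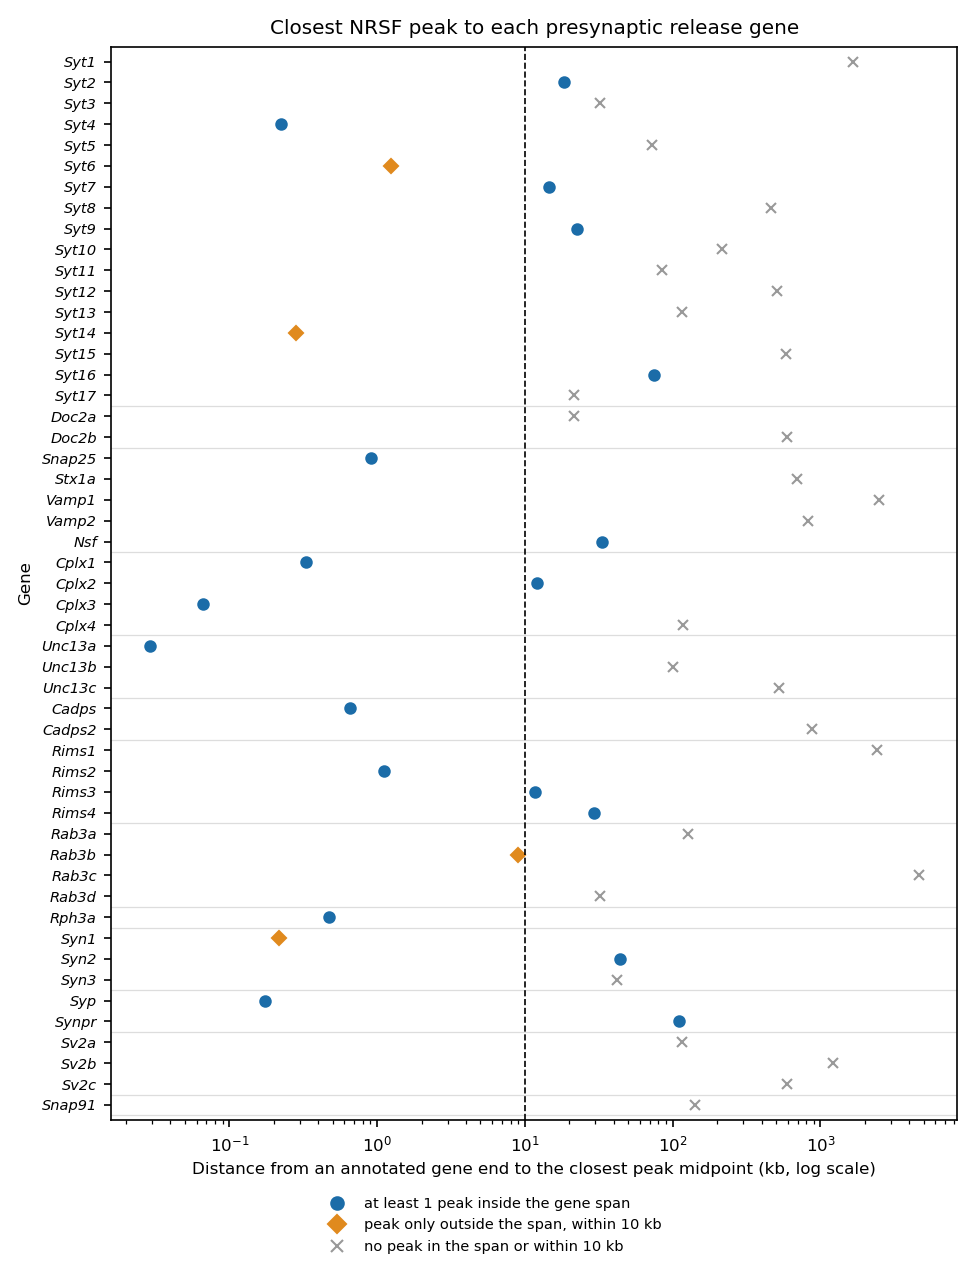
Distance in kb (log scale) from the closer annotated end of each of the 51 genes to the closest peak midpoint, by family; circles mark genes with at least 1 peak inside the span, diamonds genes with a peak only outside the span, crosses genes without a peak, and the dashed line the 10 kb limit. Of the genes with a peak, 10 lie at or under 1 kb, with Unc13a closest at 0.029 kb, and the genes without a peak start at 21.4 kb.

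In the fusion machinery 5 of 9 genes had a peak (55.6%, all genes 7.49%). Snap25, which encodes a plasma membrane SNARE, had a peak at chr2:136714155-136714555, 916 bp inside an annotated end. Its partners had none: the closest peak was 691.2 kb from Stx1a, which encodes the other plasma membrane SNARE, and 2491.5 and 822.2 kb from Vamp1 and Vamp2, which encode the vesicle SNAREs. Of these 4 SNARE genes, Snap25 was the only one with a peak. Nsf encodes the ATPase that takes spent SNARE complexes apart and is used in all cells. It had a peak at 103920655 to 103921055 on chromosome 11, 33.2 kb downstream of its start site and with no other protein-coding gene in reach.

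Complexins clamp and then promote SNARE assembly, and 3 of the 4 genes had a peak. The Cplx1 peak, at chr5:108549495-108549895, lay 332 bp downstream of the start site. Cplx3, a complexin of retinal ribbon synapses, had a peak 66 bp downstream of its start site and a second peak 3.73 kb upstream, which lay closer to the end of the neighbouring gene Lman1l. In Cplx2, a complexin of the forebrain, the peak lay far from the start, at 85.2% of the gene's length and 12.2 kb from its far end. Cplx4, the other retinal complexin, had its closest peak 118.4 kb away. The 2 retinal complexins thus differed, as did the 2 brain forms in where the peak lay.

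Among the priming and docking genes 7 of 14 had a peak. Unc13 proteins open the SNARE syntaxin and are needed for priming. Unc13a, the main form at excitatory brain synapses, had its peak at chr8:71671545-71671945, 12 bp downstream of the start site and over the widely spaced arms shown above, whereas Unc13b and Unc13c had their closest peaks 100.9 and 527.0 kb away. Cadps and Cadps2 encode the CAPS proteins, which prime dense-core vesicles. Cadps had 3 peaks, the most of any member: 916 bp upstream of the start site (chr14:12823795-12824195) and 292.7 and 320.9 kb downstream of it. The closest peak to Cadps2, a gene of 578.4 kb, was 872.0 kb away.

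RIM proteins tether vesicles to calcium channels at the active zone, and 3 of the 4 genes had a peak. Rims2 had a peak 1.11 kb inside an annotated end. Rims3 and Rims4, which encode short forms, had peaks only within the gene body: at 11.7 and 26.1 kb from the start site in Rims3 and 29.4 kb from the closer end in Rims4. Rims1, the best-studied form and 520.2 kb long, had its closest peak 2422.6 kb away.

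Of the 4 Rab3 genes, which encode the small GTPases of synaptic vesicles, Rab3b alone met the rule. Its peak lay 8.94 kb upstream of the start site and closer to an end of Txndc12, so Rab3b had no peak when each peak went to the gene with the closest end. The closest peaks to Rab3a, the main neuronal form, and to Rab3c and Rab3d were 127.2, 4611.4 and 32.3 kb away. Rph3a, which encodes the Rab3 effector rabphilin, had the promoter peak with the RE1 core described above, at chr5:121009440-121009840, and a second peak at 70.2% of its length, 47.3 kb downstream of the nearest start site.

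Vesicle proteins with a peak numbered 4 of 9 (44.4%, all genes 7.49%). Synapsins tether vesicles to each other in the reserve pool. Syn1 had its peak 217 bp upstream of the start site, over the core shown above. Syn2 had a peak 44.1 kb downstream of its first start site, at 29.9% of the gene's length, and Syn3 had its closest peak 42.1 kb outside the gene. The synaptophysin family, with both genes bound, was the only family of more than 1 gene without a member lacking a peak. In Syp the peak began upstream of the start site and its midpoint lay 175 bp downstream of it. In Synpr, which encodes synaptoporin, it lay at 66.8% of the length, 51.6 kb downstream of an internal start site. The 3 Sv2 genes, which encode vesicle glycoproteins that bind botulinum toxin, had none, with closest peaks 114.9 kb from Sv2a, 1215.2 kb from Sv2b and 597.0 kb from Sv2c. Snap91, which encodes a clathrin adaptor of vesicle recycling, had its closest peak 141.1 kb away.

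Most families were thus divided. Of the 11 families with more than 1 gene in the list, 8 had members with and without a peak, 1 had a peak at each gene and 2 had none. By role the shares ran from 36.8% for the calcium sensor families and 44.4% for vesicle proteins to 7 of 14 genes for priming and docking and 55.6% for fusion. With 9 to 19 genes each, the intervals of all 4 roles overlapped, and no order among the roles can be read from them.

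**Figure D4:**
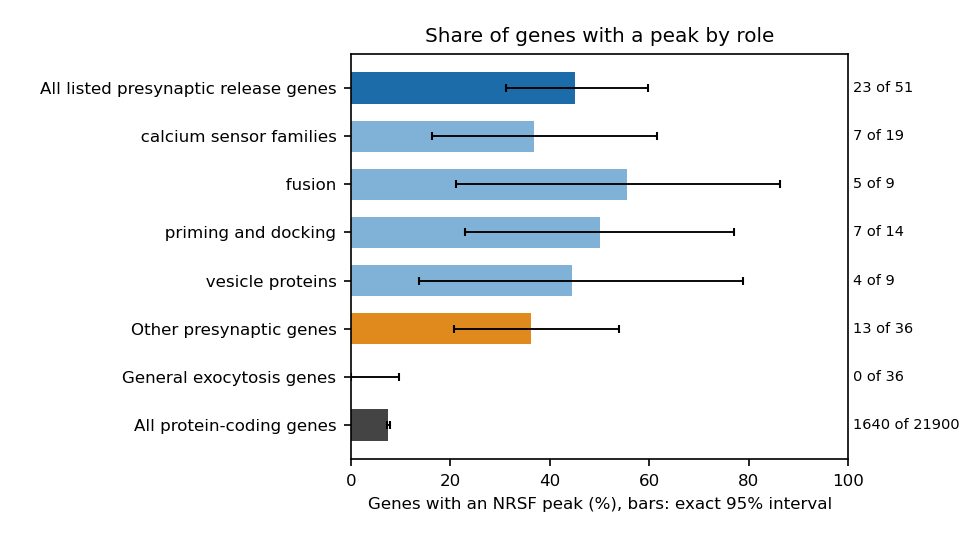
Percentage of genes with an NRSF peak in the 51 release machinery genes, in their 4 roles, in 2 comparison lists and in all protein-coding genes, with exact 95% intervals as black lines and the counts at the right. The intervals of the 4 roles overlap, and no general exocytosis gene had a peak.

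The 28 peaks at these genes fell mostly at gene ends or deep inside genes. There were 10 within 1 kb of an annotated end (35.7%, against 17.8% of the gene and peak pairs over all protein-coding genes). They lay 1 each at Syt4, Syt14, Snap25, Cplx1, Cplx3, Unc13a, Cadps, Rph3a, Syn1 and Syp. The strand is known for 8 of these genes, and in all 8 the peak was at the 5′ end. Over all protein-coding genes, 201 of 280 gene and peak pairs within 1 kb of an end were at the 5′ end (71.8%). A further 14 of the 28 peaks lay more than 10 kb from either end, inside the gene, and the other 4 lay between 1 and 10 kb from an end. For these larger distances no share over all pairs was computed. In all, 78.6% of the peaks were inside the span, against 60.9% of the gene and peak pairs over all protein-coding genes. These shares were not tested. The median distance to the closest end was 10.3 kb in the group and 6.02 kb over all pairs, for genes with a peak that were also longer (median 69.6 against 36.2 kb).

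Few of the peaks could be assigned to another gene by position. For 26 of the 28 peaks (92.9%) the release machinery gene had the closest end of any protein-coding gene. The exceptions were the Rab3b peak and the second Cplx3 peak. Over all genes the gene of the pair had the closest end in 74.2% of pairs. These shares cannot be compared directly, because only 1 gene per peak can have the closest end. Over all genes 1968 pairs came from 1521 peaks, so some peaks were paired with more than 1 gene. The 28 peaks were each paired with 1 release machinery gene, and pairs with their neighbours were not counted. Another protein-coding gene was within reach for 6 peaks: Jak3 at the Unc13a peak, Cfp at the Syn1 peak, Cacna1f at the Syp peak, Txndc12 at the Rab3b peak, and Lman1l at both Cplx3 peaks, with Ulk3 at the first. Of these neighbours Cacna1f encodes a retinal calcium channel, whereas Jak3 and Cfp (properdin) are genes of immune cells. More than 1 peak was found at 4 of the 23 genes with a peak (17.4%), against 13.5% of all genes with a peak. None of the 28 peaks lay in a 1 Mb bin with 10 or more peaks. Such bins mattered for few genes: without them 1621 of the 1640 protein-coding genes with a peak kept one.

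Genes without a peak were mostly far from any. Of the 28, 21 were more than 100 kb and 13 more than 500 kb from the closest peak midpoint, and 5 were within 50 kb (Doc2a, Syt17, Syt3, Rab3d and Syn3). Such distances were not particular to the group. The median was 339 kb here, 320 kb for other presynaptic genes without a peak and 256 kb for the general exocytosis genes, both lists described below. No such distance was computed over all protein-coding genes. The median length of the members without a peak, 30.8 kb, was lower than that of the members with a peak. Without a peak score or read counts, a weak site below the authors' threshold cannot be told apart from an unbound gene.

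Peaks were also found at other genes of the presynapse. In a list of 36 further presynaptic genes, 13 had a peak (36.1%, interval 20.8 to 53.8%, all genes 7.49%). They included 5 of 15 active zone scaffold genes, 4 of 7 genes of vesicle endocytosis, 2 of 8 SNARE regulators and 2 of 6 other vesicle membrane genes. The 6 with a peak closest to an end were Svop (105 bp), Scamp5 (145 bp), Bsn (284 bp), Sncb (330 bp), Ppfia3 (824 bp) and Lin7b (1696 bp), and the last 2 shared 1 peak. Bsn encodes bassoon, the large scaffold of the active zone, and Scamp5 a vesicle membrane protein. The Sncb peak 330 bp from an end lay at the 3′ end of the gene, and a second Sncb peak lay closer to an end of the neighbouring gene Gprin1. The Scamp5 promoter held the core with a single mismatch, C1T, its centre at the peak midpoint (distance 0 bp). The others with a peak were Synj1, Pacsin1, Napb, Dnm3, Rimbp2, Apba2 and Amph.

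A second comparison list, of membrane traffic and secretion genes that are not specific to neurons (some used in most cells, others such as Unc13d and Stx11 mainly in blood cells), had no peak. None of the 36 genes, 20 SNAREs and 16 others, met the rule. The exact interval of this share reached 9.74%, and the simpler limit of 3 genes in 36 gives 8.33%. Both lie above the 7.49% of all protein-coding genes, so a count of 0 does not set this list apart from all genes. The list holds relatives of the members as well as genes of other families. Snap23, the general counterpart of Snap25, had its closest peak 164.6 kb away. Unc13d, the Unc13 protein of blood cell granules, had its closest peak 247.9 kb away, and Vamp3 and Vamp8, vesicle SNAREs of macrophages among other cells, had theirs 104.1 and 1689.6 kb away. The nearest to the limit were Napa, at 11.6 kb, and Esyt1, at 13.9 kb. These genes were shorter than the release genes (median 27.4 kb). Within the class of 10 to 50 kb, 0 of 27 of them had a peak, against 4 of 14 release genes and 6.33% of all genes.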

How the data were processed

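NRSF ChIP-seq was done on 2 immunoprecipitated samples and 1 input sample of mouse RAW264.7 cells. The authors deposited 1 list of peak positions (chromosome, start and end) for both, with no score or count. Bowtie 0.12.8, MACS 1.4.2 and the mm10 build are named in the submitters' processing notes. For the peak threshold and the merging of replicates, the method is not given in the sources used here. Dog, horse and human lists were not used here. Gene spans and promoters came from RefSeq (GRCm38.p6, the assembly mm10 denotes). Start sites were placed from the promoter table. Promoter entries were not used for Syt4, Syt5, Syt7, Syt12, Syt13, Syt17, Syn3, Snap25, Vamp2, Rims2, Rims4, Cplx4, Doc2a and Doc2b, for which distances are to the closer annotated end. Whether positions count from 0 or 1 is not stated.

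Peaks were tied to protein-coding genes by midpoint (span or 10 kb). No test was run between lists, because the members and lists were chosen with earlier results of these data known. For the same reason the intervals describe counting error and do not serve as tests. Every member is named. Of the comparison lists, the genes with a peak are named, and those closest to an end with values. Other genes of those lists were named after their values were seen. The assignment code was checked on simulated data: 200 of 200 peaks planted within reach of a gene were recovered. This checks the code and not whether the rule ties a real peak to the right gene. Alternatives covered the reach, overlap, closest gene, dense bins, moved windows and mismatches. Python 3.11.15, numpy 2.4.6, pandas 2.3.3 and scipy 1.17.1 were used.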

Additional observations from a re-analysis of the deposited data

How the results depend on the processing

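The 23 genes stayed between 19 and 25 with the span only, with 5 or 25 kb around it, with any overlap of the peak, with the closest gene only, without dense bins and with starts moved by 1 base. With ends within 10 kb only the count was 13, within 1 kb of an end 10, and within 1 kb of a start site 8. The first of these settings loses the 10 genes whose peaks all lie deeper inside. Windows moved by 200 kb met 6 of the 51 genes (11.8%, all genes 7.17%), 4 of them genes with a peak. The moved window of a gene longer than 200 kb still overlaps that gene. That of Cadps (450.8 kb) holds a peak of its own in either direction. For the other presynaptic genes the count went from 13 to 5 within 1 kb of an end, and to 6 with moved windows. The general exocytosis genes went from 0 to 2 with 25 kb and to 3 with moved windows. Over all genes the count went from 1640 to 971 with the span only and to 345 within 1 kb of an end. Promoters of the group with the RE1 core numbered 3 with up to 2 mismatches (5.88%, all promoters 0.773%). Here all promoters include those of genes that are not protein-coding. The count was 1 with up to 1 mismatch (1.96%, all promoters 0.0883%) and 6 with up to 3 (11.8%, all promoters 6.25%). An exact arm alone occurred in 11 (21.6%, all promoters 13.1%). Exact arms 0 to 12 bases apart occurred in 1 (1.96%, all promoters 0.0609%). No paired analysis was possible because the list holds no value per replicate, and for the same reason no replicate could be left out and no stricter threshold tried.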
